A study of Mus musculus with 3 samples.

Results

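The cells described here are the cycling cells of the mouse kidney cortex, looked for in every cell class that was found. A barcode was kept when it had at least 200 genes and at most 50% mitochondrial UMIs, and it was chosen as cycling when at least 3 of 7 genes (Mki67, Top2a, Ube2c, Birc5, Cdk1, Cenpf and Anln) had a UMI, a UMI being 1 counted RNA molecule. Of 26760 kept cells, 197 were chosen by this rule: 48 of 8047 in the Sham library, 102 of 9024 in IRI24h-TDN and 47 of 9689 in IRI24h-TD. All 3 libraries came from WT1CreERT2; Rosa26-tdTfl/+ mice, in which a CreERT2 knocked in at the Wt1 locus switches on the fluorescent protein tdT after tamoxifen, so that podocytes, parietal epithelial cells (PECs) and their descendants carry the label. The Sham mice had sham surgery. The other mice had severe bilateral ischemia-reperfusion injury (IRI) and were taken 24 h later. In the Sham and IRI24h-TDN libraries sorted tdT+ cells were mixed with tdT- cells, with the tdT+ cells in excess, whereas the IRI24h-TD library held tdT+ cells only. Kidneys were pooled within each library and the strain and age are not given in the sources used here. With 1 library per condition no difference between libraries was tested, and every interval below is an exact 95% interval (Clopper-Pearson for shares, Poisson for summed UMIs) that covers counting error only. For a count of 0 cells the limit printed as "up to" is instead 3 cells over the number of cells, which is lower than the exact upper bound.

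A dividing cell copies its DNA in S phase and separates the copies in mitosis after a gap phase called G2. Genes of S phase, such as the Mcm helicase subunits, are transcribed under E2F factors, while most genes of G2 and mitosis (G2/M) are held silent in resting cells by the DREAM complex and switched on by MYBL2 and FOXM1 through a promoter element called the CHR. In the healthy kidney few cells divide, mature podocytes are regarded as unable to do so, and tubule cells re-enter the cycle after ischemia.

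The 7 genes that define these cells belong to that second wave. Mki67 coats mitotic chromosomes, Top2a untangles DNA, Ube2c and Cdk1 drive the entry to and exit from mitosis, Birc5 is part of the chromosomal passenger complex, Cenpf binds kinetochores and Anln is a scaffold of the cleavage furrow. In the GRCm38 annotation Mki67 lies on chromosome 7 (135689784 to 135716361, minus strand), Top2a on chromosome 11 (98992943 to 99024189, minus strand) and Cdk1 on chromosome 10 (69335146 to 69352938, minus strand). The 120 bases upstream of the RefSeq start sites (GRCm38.p6) are shown for these 3 genes because each holds a CHR there, and for the S phase gene Mcm6 because it holds E2F elements and no CHR. Capitals mark a CHR, spelled TTTGAA in its usual form and TTTAAA in the other, a box with the letters CCAAT, or an E2F element (TTTCCCGC, TTTGGCGC, TTTGCCGC or TTTCGCGC), each searched on both strands, and adjoining or overlapping matches run together.
Mki67, chr7:135716380-135716499, minus strand: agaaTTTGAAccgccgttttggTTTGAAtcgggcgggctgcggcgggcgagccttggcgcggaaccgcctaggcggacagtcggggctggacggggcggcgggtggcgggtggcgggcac
Top2a, chr11:99024190-99024309, minus strand: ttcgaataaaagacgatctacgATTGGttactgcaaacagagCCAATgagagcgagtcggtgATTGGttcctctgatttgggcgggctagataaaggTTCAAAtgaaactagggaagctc
Cdk1, chr10:69352913-69353032, minus strand: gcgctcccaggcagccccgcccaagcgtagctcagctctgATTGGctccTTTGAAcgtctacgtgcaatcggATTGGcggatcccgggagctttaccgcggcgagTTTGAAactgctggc
Mcm6, chr1:128359706-128359825, minus strand: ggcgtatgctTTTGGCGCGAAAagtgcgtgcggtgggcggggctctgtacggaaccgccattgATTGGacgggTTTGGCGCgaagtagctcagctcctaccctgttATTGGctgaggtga

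Over the full windows of 250 bases before to 50 after the start, a CHR was found in the promoters of all 7 genes and a CCAAT box in 5 of them (Cdk1, Cenpf, Mki67, Top2a and Ube2c). Both motifs together stood in 27 of 45 promoters of the G2/M list (60.0%, 40 of its 47 genes matched to the RefSeq table) and in 7 of 34 promoters of the S phase list (20.6%, 31 of 43 genes matched). An E2F element stood in 12 of 34 S phase promoters (35.3%) and in 2 of 45 G2/M promoters (4.44%). A CCAAT box alone stood in 75.6% of G2/M and 67.6% of S phase promoters, and a CHR in 75.6% and 26.5%. Among all 32851 promoters of the same length, 27.6% held a CHR, 37.4% a CCAAT box, 10.7% both and 2.26% an E2F element. These matches describe letters in the sequence and not bound sites.

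Because the rule chose the cells on these 7 genes, their counts in the chosen cells only describe the choice. Mki67 had a UMI in 185 of the 197 cycling cells and in 0.783% of the other 26563 cells, and Top2a in 189 and in 0.843%. Ube2c and Cenpf had a UMI in 108 and 107 of the cycling cells, the fewest of the 7 genes. The median per cycling cell was 8 UMIs for Mki67 and Top2a, 3 for Birc5, 2 for Cdk1 and 1 for Ube2c, Cenpf and Anln. All 7 genes were seen in 66 cells. At the edge of the rule, 37 cells had exactly 3 of the genes, with a median of 6 UMIs over the 7 genes, and 88 cells just outside it had exactly 2, with a median of 3 UMIs. Cycling cells were deeper than the others in each library, with a median of 9252 against 7745 UMIs in Sham, 13050 against 9131 in IRI24h-TDN and 16972 against 9523 in IRI24h-TD. Their median mitochondrial share was 3.79% against 4.29%, 3.75% against 3.92% and 4.82% against 3.27% in the same order. The libraries shared between 102 and 114 barcodes in pairs, and no barcode was cycling in both libraries of a pair.

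Cycling cells made up 0.597% of Sham cells (0.440 to 0.790), 1.13% of IRI24h-TDN cells (0.923 to 1.37) and 0.485% of IRI24h-TD cells (0.357 to 0.645). The IRI24h-TDN interval lay above both others. When each cell was thinned to 2400 UMIs and shallower cells were left out, the shares were 0.509% (38 of 7468 cells), 0.614% (55 of 8962 cells) and 0.346% (31 of 8962 cells), and the intervals of Sham (0.360 to 0.698) and IRI24h-TDN (0.463 to 0.798) then overlapped. The sort and the mixing of tdT+ with tdT- cells set how many cells of each class a library held, and podocyte-like cells made up 18429 of all kept cells, so shares of a library cannot be told apart from that choice.

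Cell classes came from clusters built without cell-cycle genes and named from marker lists, with "-like" marking that the names are rebuilt here. The cycling cells fell mainly into 3 of them. Monocytic-like cells supplied 53 (26.9%), a cluster that carried both parietal and proximal genes supplied 52 (26.4%), and proximal-like cells supplied 30 (15.2%). Lymphocyte-like cells supplied 18, connecting and principal-like cells 11, and a cluster led by H2-Ab1, Cxcl9, H2-Aa and Xcr1 that met no name supplied 10. The remaining 23 were spread over 6 fibroblast-like cells, 5 parietal-like cells, 4 ascending limb-like cells, 4 intercalated-like cells, 3 cells of a cluster with parietal and podocyte genes and 1 podocyte-like cell. No cycling cell was found among 752 mesangial-like cells (which allows a share of up to 0.399%), 513 distal convoluted-like cells (up to 0.585%), 312 endothelial-like cells (up to 0.962%) or 54 neutrophil-like cells (up to 5.56%).

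**Figure D1:**
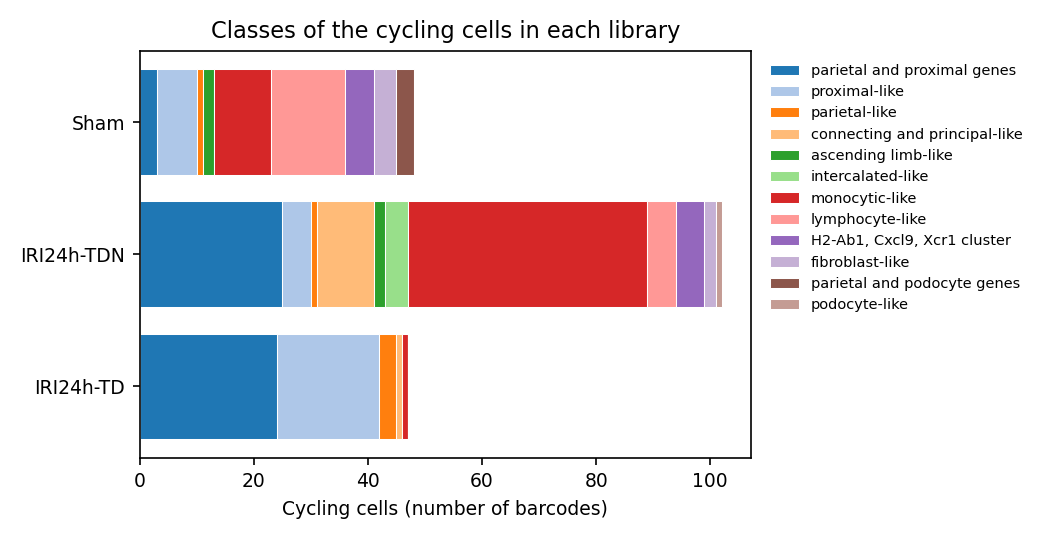
Number of cycling cells of each class (colours) in the 3 libraries (bars, starting at 0). Sham held 48 cells of 9 classes led by 13 lymphocyte-like cells, IRI24h-TDN 102 cells led by 42 monocytic-like cells, and IRI24h-TD 47 cells, of which 24 carried parietal and proximal genes and 18 were proximal-like.

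Podocyte-like cells were almost without cycling members, although they were the largest class. The rule was met by 0 of 4407 in Sham (up to 0.0681%), 1 of 5198 in IRI24h-TDN (0.0192%, 0.000487 to 0.107) and 0 of 8824 in IRI24h-TD (up to 0.0340%). The 1 cell had 2517 UMIs, lay in a small cluster led by ribosomal protein genes and was called S phase. Its podocyte marker list reached 8741 CPM (UMIs per 1000000 UMIs of the cells), against a median of 23290 CPM in the other podocyte-like cells of its library.

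The cluster with parietal and proximal genes held the largest group of cycling epithelial cells. It was led by genes that included Gc, Wfdc16, Sox9 and C3, and its cells carried PEC genes beside tubule transporters. In Sham 3 of 393 of its cells were cycling (0.763%, 0.158 to 2.22), in IRI24h-TDN 25 of 146 (17.1%, 11.4 to 24.2) and in IRI24h-TD 24 of 192 (12.5%, 8.18 to 18.03). Both IRI intervals lay far above the Sham interval and overlapped each other. The same order held in thinned counts, with 2 of 339 (0.590%), 16 of 139 (11.5%) and 17 of 169 (10.1%). The non-cycling cells of the cluster also differed between libraries. Their proximal list had a median of 6469 CPM in Sham, 1936 CPM in IRI24h-TDN and 1693 CPM in IRI24h-TD. Their parietal list had 3147, 4948 and 6450 CPM in that order. The shares thus compare unlike cells under 1 cluster name, and the part of this in the shares was not tested. All 52 cycling cells had at least 3 of the 8 parietal markers (Cp, Akap12, Cldn1, Ncam1, Dkk3, Wnt16, Osr2, Cdh6), and no list of a class other than these 2 reached 25% of its class level in any of them. At least 3 of the 12 proximal markers were seen in only 32 of the 52. The proximal list had a median of 691 CPM in the cycling cells of IRI24h-TDN and 717 CPM in those of IRI24h-TD. By its own marker counts alone each of 46 of the 52 was nearest to the parietal list, 1 to the proximal list, and 5 to none. Among parietal-like cells the rule was met by 1 of 186 in Sham (0.538%), 1 of 45 in IRI24h-TDN (2.22%) and 3 of 61 in IRI24h-TD (4.92%), and their 3 intervals overlapped. Their share over all libraries, 1.71%, was 6.89% with classes by own markers and 0.362% with cell-cycle genes kept in the clustering.

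Proximal-like cells were cycling in 7 of 1056 in Sham (0.663%, 0.267 to 1.36), 5 of 158 in IRI24h-TDN (3.17%, 1.04 to 7.23) and 18 of 116 in IRI24h-TD (15.5%, 9.46 to 23.4). The tdT+ library stood above the other two intervals. Thinned counts gave 5 of 920 (0.543%), 1 of 156 (0.641%, 0.0162 to 3.52) and 11 of 70 (15.7%). The IRI24h-TD share stayed. That of IRI24h-TDN rested on 1 cell, and its interval held both the thinned Sham share and the 3.17% before thinning. These cells differed between libraries in what made them proximal. The 7 Sham cells were all nearest to the proximal list, and their summed level over its 12 markers ran from 11000 to 21770 CPM. In IRI24h-TD the same sum ran from 0 to 8482 CPM in the 18 cycling cells, where 1 cell was nearest to the proximal list, 9 to the parietal list, 1 to the podocyte list and 7 to none. In IRI24h-TDN it ran from 1995 to 3116 CPM, and 4 of 5 cells were near to no list and 1 to the parietal list. The non-cycling proximal-like cells differed too, with list medians of 24260 CPM in Sham, 5789 CPM in IRI24h-TDN and 2621 CPM in IRI24h-TD. Of them 5.91%, 15.7% and 48.0% carried markers of another class, and 13 of 98 in IRI24h-TD had no proximal marker. The IRI24h-TD share is thus not that of clearly proximal cells. Leaving out cells with markers of another class removed 12 of the 30 cycling cells. Clustering with the cell-cycle genes kept left 11 cycling cells under the proximal name and moved the group with parietal and proximal genes to 78, so the border between both groups depended on the clustering.

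Among distal segments the cycling cells came mostly from IRI24h-TDN. Connecting and principal-like cells, which reabsorb water and sodium in the late tubule, were cycling in 0 of 240 in Sham (up to 1.25%), 10 of 356 in IRI24h-TDN (2.81%, 1.36 to 5.11) and 1 of 28 in IRI24h-TD (3.57%). The exact upper bound for Sham was 1.52%, so the Sham and IRI24h-TDN intervals overlapped. Thinned counts gave 6 of 339 (1.77%) in IRI24h-TDN. The water channel gene Aqp2 had a UMI in all 10 cycling cells of that library at 3427 CPM (3129 to 3746), against 5844 CPM (5763 to 5925) in the other cells. Lcn2, which encodes the injury marker NGAL, also had a UMI in all 10, at 3406 CPM (3108 to 3724) against 2699 CPM (2645 to 2755). Ascending limb-like cells held 2 cycling cells of 130 in Sham and 2 of 508 in IRI24h-TDN, and 1 of those in IRI24h-TDN was nearest to the podocyte list by its own markers. The 4 cycling cells of the intercalated-like clusters, all in IRI24h-TDN, went against that name. Their summed intercalated markers had a median of 21.6 CPM, against 10530 CPM in the other cells of the class and library, Foxi1 and Slc4a1 were at 0 in all 4, and each was near to no list by its own markers. The distal clusters together, with those 4 cells counted, gave 2 of 607 cells in Sham (0.330%), 16 of 1685 in IRI24h-TDN (0.9496%) and 1 of 78 in IRI24h-TD (1.28%). In thinned counts they gave 1 of 566 (0.177%), 7 of 1655 (0.423%) and 0 of 51 (up to 5.88%), with 0 of 501 ascending limb-like and 1 of 374 intercalated-like cells in IRI24h-TDN. Over all libraries the distal clusters gave 19 of 2370 cells (0.802%). With at most 20% mitochondrial UMIs they gave 16 of 1065 (1.502%), so this limit left out many distal cells.

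Monocytic-like cells were cycling in 10 of 284 in Sham (3.52%, 1.70 to 6.38), 42 of 915 in IRI24h-TDN (4.59%, 3.33 to 6.15) and 1 of 14 in IRI24h-TD. The Sham and IRI24h-TDN intervals overlapped widely, and in thinned counts the shares were 2.79% (7 of 251) and 2.31% (21 of 911). The larger number in IRI24h-TDN thus went with more monocytic-like cells and not with a measurably larger cycling share. All 53 had at least 3 of the 12 monocytic markers. Ccr2, the receptor that draws monocytes into injured tissue, had a UMI in 8 of 10 cycling cells in Sham, at 1003 CPM (794 to 1250) against 469 CPM (432 to 509) in the others, and in 20 of 42 in IRI24h-TDN, at 503 CPM (445 to 567) against 335 CPM (320 to 350). The summed Ccr2 level was higher in the cycling cells of both libraries, by intervals that leave out the spread between cells. C1qa, a complement gene of resident macrophages, went the other way in Sham and up in IRI24h-TDN, with 1333 CPM (1091 to 1614) against 1694 CPM (1622 to 1768) and 2478 CPM (2345 to 2616) against 2228 CPM (2189 to 2267).

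Over all libraries the highest cycling share of any class was in the lymphocyte-like cluster (18 of 109 cells, 16.5%), with 13 of 79 cells in Sham (16.5%, 9.06 to 26.5) and 5 of 24 in IRI24h-TDN (20.8%, 7.13 to 42.2). The cluster was led by immunoglobulin genes such as Igha and Jchain, but most of its cycling cells carried T and NK cell genes. Cd3e, a subunit of the T cell receptor complex, had a UMI in 15 of 18 cycling cells, at 656 CPM, against 25 of 91 others, at 155 CPM. Nkg7, a gene of cytotoxic granules, had a UMI in 13 of 18 at 761 CPM against 19 of 91 at 196 CPM. The B cell gene Cd79a was seen in 1 of 18 cycling cells and 25 of 91 others. The cluster led by H2-Ab1, Cxcl9 and Xcr1, genes of antigen presentation, was cycling in 5 of 39 cells in Sham (12.8%, 4.30 to 27.4) and 5 of 48 in IRI24h-TDN (10.4%, 3.47 to 22.7). Fibroblast-like cells were cycling in 4 of 121 in Sham, 2 of 41 in IRI24h-TDN and 0 of 45 in IRI24h-TD, but 3 of the 6 were nearer to the parietal list by their own markers.

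**Figure D2:**
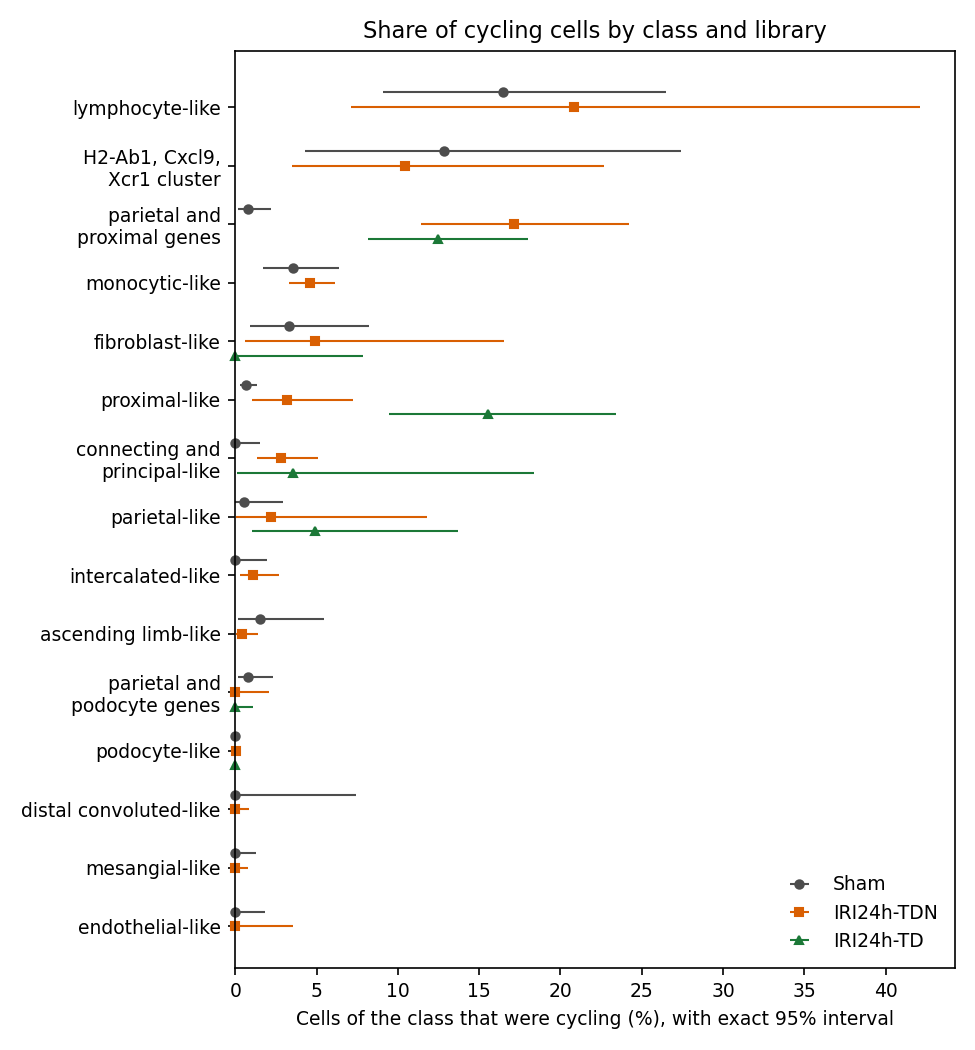
Share of cells that were cycling (%, with exact 95% intervals) by class and library. Points stand for classes with at least 20 cells in that library. The cluster with parietal and proximal genes sat at 0.763% in Sham and at 17.1% and 12.5% in the IRI24h-TDN and IRI24h-TD libraries, and podocyte-like cells lay at or next to 0 in all 3.

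Phase was scored from an S phase list of 43 genes and a G2/M list of 47 genes that left out the 7 genes of the rule. Of the 197 cells, 110 scored as S, 85 as G2/M (43.1%, 36.1 to 50.4) and 2 as neither, and 20 cells lay within 0.1 score units of the line between S and G2/M. The scores alone do not mark cycling, since 6404 of the 26563 other cells were also given S or G2/M. The genes of both lists chose the phase, so their levels describe it. Ung, a uracil glycosylase of S phase, had 89.1 CPM in S cells and 3.96 CPM in G2/M cells. Mcm2 had 152 CPM in S cells and 30.1 CPM in G2/M cells, and the G1/S cyclin Ccne1, in neither list, 59.8 and 14.3 CPM. In the other direction Cenpa, the histone variant of centromeres, had 16.7 CPM in S cells and 326 CPM in G2/M cells. Ccnb1 and Plk1, a mitotic cyclin and a mitotic kinase that were also in neither list, had 19.0 and 235 CPM and 21.3 and 197 CPM. Within the rule, Ube2c differed most, with 46.5 CPM in S cells and 783 CPM in G2/M cells, followed by Cenpf with 43.1 and 541 CPM, while Cdk1 had 203 and 502 CPM.

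The share in G2/M ran from high in Sham to low in IRI24h-TDN. G2/M cells made up 32 of 48 in Sham (66.7%, 51.6 to 79.6), 30 of 102 in IRI24h-TDN (29.4%, 20.8 to 39.3) and 23 of 47 in IRI24h-TD (48.9%, 34.1 to 63.9). Sham and IRI24h-TDN had intervals that did not meet, with more S phase cells in the IRI24h-TDN library. In thinned counts the G2/M shares were 76.3% (29 of 38, 59.8 to 88.6), 52.7% (29 of 55, 38.8 to 66.4) and 58.1% (18 of 31, 39.1 to 75.5), so the IRI24h-TDN share moved by over 1.5 times and its interval met that of Sham. With at least 2 of the 7 genes as the rule, the IRI24h-TDN share was 18.9%. Cells with exactly 2 of the genes were 53 in S, 4 in G2/M and 31 in neither, and those with exactly 3 were 28, 7 and 2. The G2/M share thus depends on the rule and on depth, and their part in the difference between libraries was not tested. By class, the S and G2/M counts were 27 and 25 in the cluster with parietal and proximal genes, 14 and 15 in proximal-like cells and 34 and 18 in monocytic-like cells. The monocytic-like cells followed the libraries, with 6 of 10 in G2/M in Sham and 11 of 42 in IRI24h-TDN (26.2%, 13.9 to 42.0). Proximal-like cells were in G2/M in 5 of 7 in Sham, 0 of 5 in IRI24h-TDN and 10 of 18 in IRI24h-TD. Those 10 cells were shallow, with a median of 2786 UMIs, against 20397 UMIs in the 8 proximal-like S cells of IRI24h-TD. The cluster with parietal and proximal genes was close to even in both IRI libraries, with 11 of 25 and 12 of 24 cells in G2/M. Connecting and principal-like cells lay mostly in S, with 8 S and 3 G2/M cells, and lymphocyte-like cells mostly in G2/M, with 7 and 11.

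**Figure D3:**
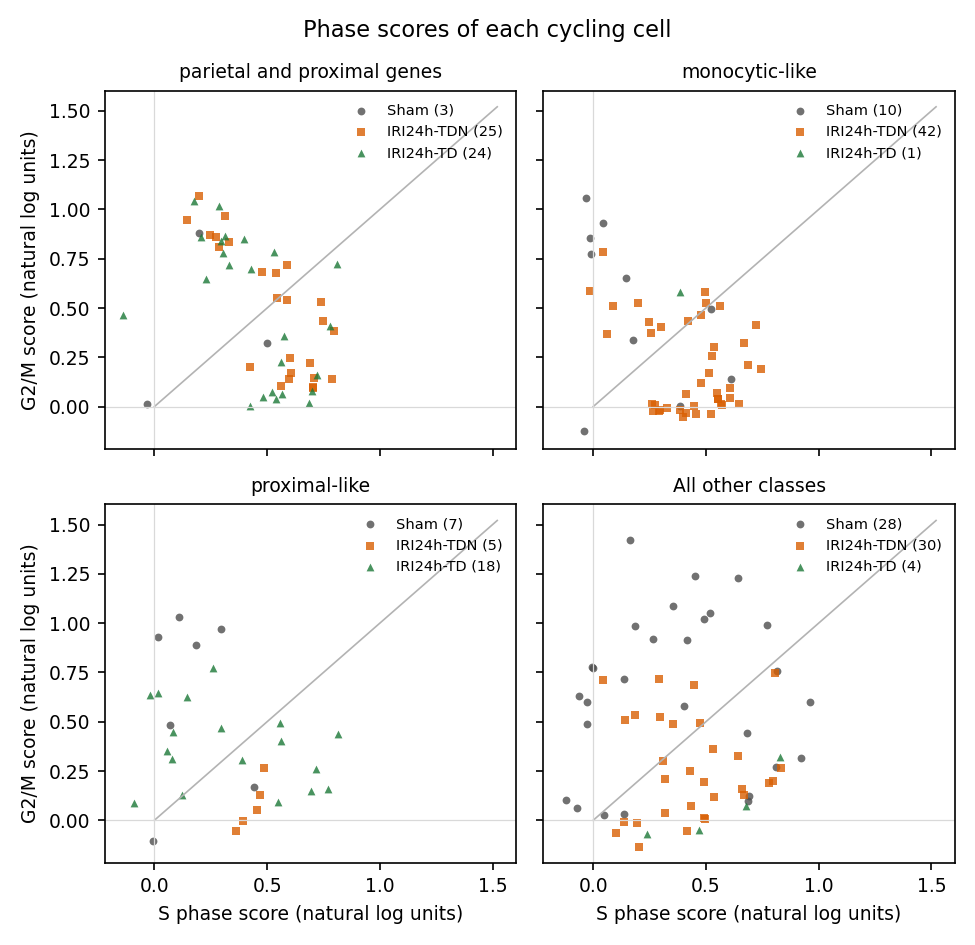
S phase score (horizontal) and G2/M score (vertical) of every cycling cell, as mean natural-log expression above control genes, with cells above the grey diagonal called G2/M. In the monocytic-like panel most IRI24h-TDN cells (31 of 42) lie below the diagonal, while in the cluster with parietal and proximal genes 27 cells lie in S and 25 in G2/M.

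For the 3 classes with 30 or more cycling cells, each gene was compared between cycling cells and the other cells of the same class, matched by library. A fold of 2 was used as the mark, with no test, because the cells of 1 library are not replicates. The cycle lists only describe what the rule chose. In the cluster with parietal and proximal genes 39 of 43 S phase genes and 44 of 47 G2/M genes were at least 2-fold higher, where 8.57% of all 11616 genes compared were that much higher and 11.0% that much lower. In monocytic-like cells these counts were 37 of 42 and 39 of 45, where 9.70% of 10057 genes were higher and 9.26% lower. In proximal-like cells they were 39 of 42 and 42 of 45, where 9.91% of 10147 genes were higher and 8.93% lower. The median over all genes lay at -0.05, 0.03 and 0.03 on the log2 scale, against medians of 2.47, 2.27 and 2.68 for the S phase list and of 5.15, 3.89 and 4.57 for the G2/M list.

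Members of each cycle machine moved with different sizes. The 11 licensing genes, which load the replicative helicase, were higher in the cluster with parietal and proximal genes with a median log2 fold of 2.36, from 2.01 for Mcm2 to 5.41 for Cdc6. The kinetochore and checkpoint genes had a median of 6.71 and the spindle and cytokinesis genes one of 6.57, and all 11 and all 13 were at least 2-fold higher. All 5 condensin genes were higher too, with a median of 4.47. Among cyclins the late ones led. In that cluster Ccnb1 had a log2 fold of 9.28, Ccna2 one of 7.39 and Ccne1 one of 4.71, whereas the D cyclins had 0.90 (Ccnd1), -0.55 (Ccnd2) and -0.07 (Ccnd3). Their partner kinases Cdk4 and Cdk6 had 0.91 and -0.20 there. Of the 11 transcription factors of the cycle 9 were at least 2-fold higher, with 2.74 for E2f1, 5.08 for Foxm1 and 5.58 for Mybl2 in the same cluster, while Lin37 and Lin52, subunits of DREAM, had 0.04 and 0.47.

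**Figure D4:**
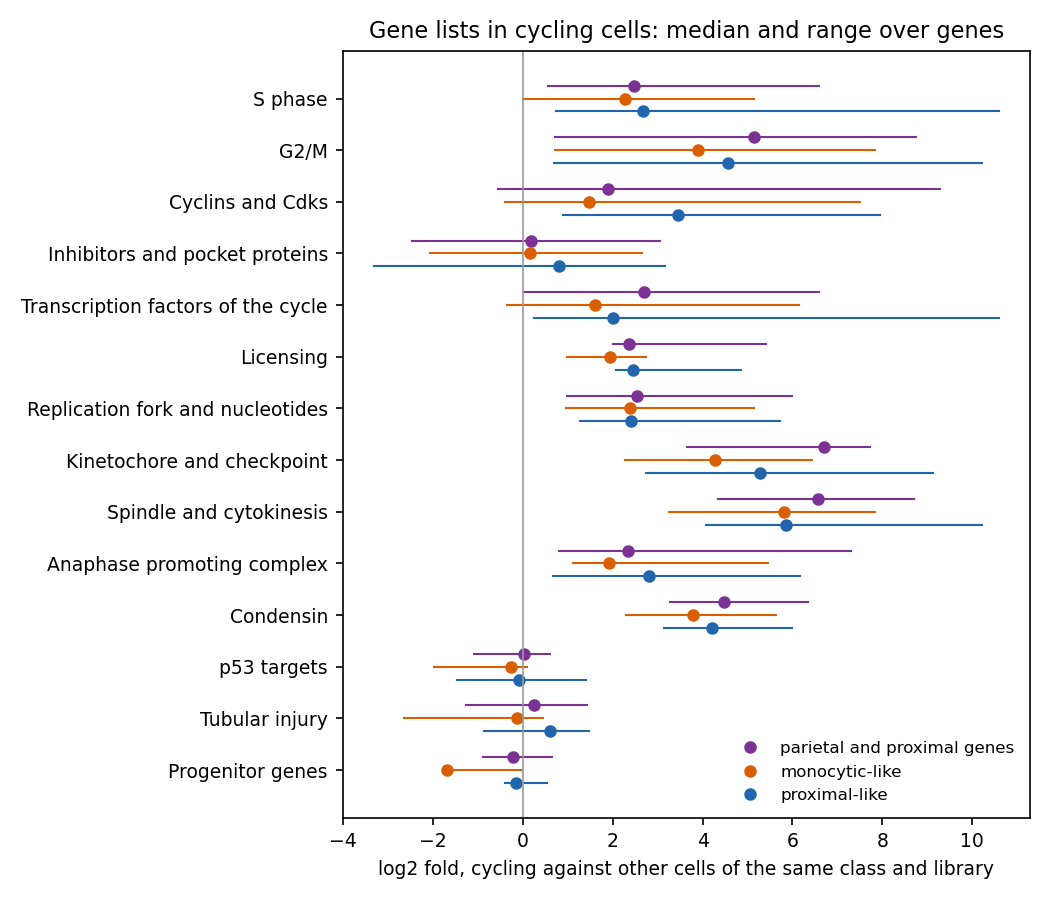
Median (points) and range (lines) of log2 folds over the genes of each list, cycling against other cells of the same class and library, in 3 classes. The S phase and G2/M medians lay between 2.27 and 5.15, while the p53 target medians lay between -0.27 and 0.03.

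Brakes of the cycle did not move as 1 group. Of the 10 inhibitors and pocket proteins, 9, 8 and 8 could be compared in the cluster with parietal and proximal genes, in monocytic-like cells and in proximal-like cells, and in each class 3 were at least 2-fold higher and 1 at least 2-fold lower, where the shares over all genes were 8.57% to 9.91% higher and 8.93% to 11.0% lower. The 3 were the same genes in each class, namely Cdkn2c, Cdkn2d and Rbl1, where Cdkn2c and Cdkn2d encode inhibitors of the D cyclin kinases and Rbl1 the pocket protein p107. In the cluster with parietal and proximal genes Cdkn2c had a log2 fold of 2.82, Cdkn2d one of 3.06 and Rbl1 one of 2.70. The lower gene was Cdkn1c in that cluster and in monocytic-like cells, and the pocket protein gene Rbl2 in proximal-like cells, where it rested on 1 UMI in the cycling cells. Cdkn1a, which encodes p21 and is a target of p53, stood at similar levels in cycling and other cells of the cluster with parietal and proximal genes. It had 289 CPM (244 to 341) against 268 CPM (243 to 294) in IRI24h-TDN and 197 CPM (161 to 239) against 170 CPM (152 to 189) in IRI24h-TD. Its log2 fold was 0.18 in that cluster, -0.14 in monocytic-like cells and 0.75 in proximal-like cells. Of the 10 p53 targets, 0 were 2-fold higher and 1, Trp53inp1, was 2-fold lower in that cluster (median 0.03). The same list had a median of -0.27 in monocytic-like cells, where 9 members were compared, 0 were higher and 1 lower, and of -0.08 in proximal-like cells, with 2 higher and 1 lower. Over all genes 8.57% to 9.91% were higher and 8.93% to 11.0% lower, so these counts did not stand apart.

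Cdkn1c, which encodes the inhibitor p57 and is a marker of resting podocytes, was lower in cycling cells of the cluster with parietal and proximal genes. It had 126 CPM (96.2 to 161) against 569 CPM (533 to 606) in IRI24h-TDN and 159 CPM (127 to 197) against 1017 CPM (973 to 1062) in IRI24h-TD. The median of the podocyte list was close in cycling and other cells, with 214 and 217 CPM in IRI24h-TDN and 518 and 604 CPM in IRI24h-TD, while its highest value in IRI24h-TD was 983 CPM in the cycling and 26350 CPM in the other cells. The log2 fold of -2.47 became -0.59 when cells with markers of another class were left out, and in monocytic-like cells it went from -2.07 to 0.01.

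Injury genes were compared in the same way. Of the 13 genes of the tubular injury list, 12 could be compared in the cluster with parietal and proximal genes: 2 were at least 2-fold higher, 1 was at least 2-fold lower, and the list's median log2 fold was 0.24. These counts are close to the shares over all genes, 8.57% higher and 11.0% lower. Havcr1, which encodes KIM-1, the receptor that marks injured proximal tubule, was 1 of the higher genes. In IRI24h-TDN it had a UMI in 13 of 25 cycling cells, at 544 CPM (481 to 613), and in 31 of 121 others, at 249 CPM (226 to 274). In IRI24h-TD it had a UMI in 15 of 24, at 305 CPM (260 to 356), and in 28 of 168, at 113 CPM (98.5 to 129). None of the 3 cycling Sham cells of the cluster had a Havcr1 UMI, against 3 of 390 others. The summed Havcr1 level was higher in the cycling cells of both IRI libraries. The intervals did not overlap, but they leave out the spread between cells, and many cycling cells had no Havcr1 UMI.

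Vim, the intermediate filament gene vimentin, was the other higher gene, with 1933 CPM (1812 to 2059) against 790 CPM (748 to 834) in IRI24h-TDN and 2554 CPM (2420 to 2694) against 886 CPM (845 to 928) in IRI24h-TD. In Sham it had 336 CPM (218 to 496) in the 3 cycling cells and 193 CPM (180 to 207) in the others. S100a6, a calcium-binding protein gene, came close to the 2-fold mark, with 9373 CPM (9105 to 9647) against 4584 CPM (4481 to 4688) and 9067 CPM (8812 to 9328) against 4790 CPM (4694 to 4888). Spp1, the gene of osteopontin, was the lower one, with 5646 CPM (5438 to 5859) against 11470 CPM (11310 to 11640) and 4021 CPM (3852 to 4196) against 12260 CPM (12110 to 12420). Sox9, a transcription factor gene of regenerating tubule, was lower in cycling cells of both IRI libraries without reaching 2-fold over both, with 372 CPM (321 to 430) against 858 CPM (814 to 903) and 595 CPM (531 to 665) against 983 CPM (939 to 1027). Krt20 did not separate the groups in IRI24h-TDN, with 235 CPM (194 to 282) against 238 CPM (215 to 263), although its UMIs were spread over 23 of 25 cycling cells and 63 of 121 others. Lcn2 went in opposite directions in the 2 libraries, with 326 CPM in 7 of 25 cycling cells against 153 CPM in IRI24h-TDN and 19.0 CPM against 174 CPM in IRI24h-TD.

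Of the 7 progenitor genes, 0 passed 2-fold in either direction in that cluster (median -0.21). Wt1, the gene whose locus drives the label, had a UMI in 20 of 25 cycling cells in IRI24h-TDN, at 160 CPM (127 to 199) against 220 CPM (198 to 244) in the others, and in 20 of 24 in IRI24h-TD, at 135 CPM (105 to 170) against 266 CPM (244 to 290). Wt1 UMIs were also seen in cells that should lack the gene, in 104 of 873 non-cycling monocytic-like cells of IRI24h-TDN at a median depth of 5726 UMIs, against 19739 UMIs in the cycling cells of the cluster, so its share of cells stood above that level but at a greater depth. Pax2, a developmental gene of PECs, had 168 CPM (134 to 208) against 105 CPM (90.1 to 122) in IRI24h-TDN and 212 CPM (175 to 255) against 154 CPM (137 to 172) in IRI24h-TD.

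In proximal-like cells the injury genes followed the library first. Havcr1 was at 0 in the 7 cycling Sham cells, at 3406 CPM (3120 to 3711) in all 5 of IRI24h-TDN and at 2079 CPM (1907 to 2262) in 12 of 18 of IRI24h-TD. The other proximal-like cells had 5.53 CPM, 2846 CPM (2784 to 2910) and 1189 CPM (1121 to 1259). Slc34a1, the phosphate transporter of mature proximal tubule, ran the opposite way, with 4249 CPM (3767 to 4775) in cycling Sham cells, 319 CPM (236 to 422) in IRI24h-TDN and 243 CPM (187 to 311) in IRI24h-TD, against 4955, 600 and 514 CPM in the others. S100a6 had 10590 CPM (10080 to 11120) against 2856 CPM (2793 to 2920) in IRI24h-TDN and 9247 CPM (8880 to 9625) against 3930 CPM (3807 to 4057) in IRI24h-TD. The parietal list moved with it, with a median of 1943 CPM in cycling and 453 CPM in other proximal-like cells of IRI24h-TDN and of 2668 and 1294 CPM in IRI24h-TD, and its part in the result was not tested. Of the 12 injury genes compared, 2 were at least 2-fold higher (median 0.60, against 9.91% of all genes), S100a6 with a log2 fold of 1.46 and Krt20 with 1.03. The Krt20 value was 0.31 in thinned counts. Krt20 differed mainly in IRI24h-TDN, with 970 CPM (821 to 1139) against 376 CPM (353 to 399), whereas in IRI24h-TD it had 224 CPM (170 to 289) against 168 CPM (143 to 196).

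**Figure D5:**
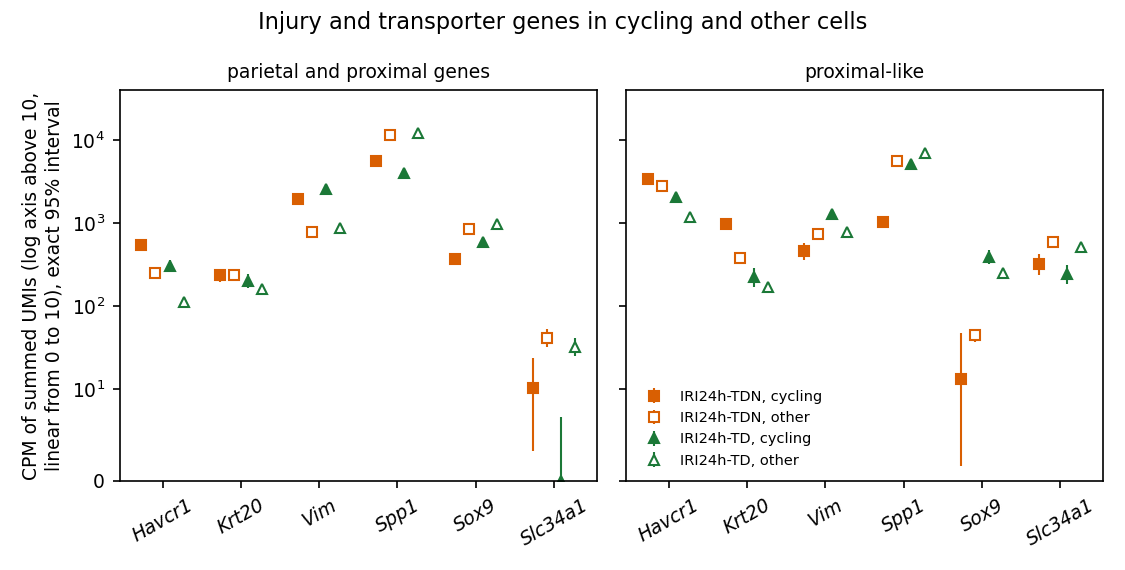
Levels (CPM of summed UMIs, exact 95% Poisson intervals) of Havcr1, Krt20, Vim, Spp1, Sox9 and Slc34a1 in cycling (filled) and other (open) cells of 2 classes in both IRI libraries. In the cluster with parietal and proximal genes Havcr1 and Vim lay higher and Spp1 and Sox9 lower in the cycling cells of both libraries.

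Outside the cycle lists, the genes with the largest folds toward cycling cells were mostly genes of mitosis that the lists did not name. Pbk, a mitotic kinase, led in each class, with 241 CPM against 0.506 CPM expected from the other cells of the cluster with parietal and proximal genes, 83.5 against 0.300 CPM in monocytic-like cells and 167 against 0.604 CPM in proximal-like cells. Aspm, a spindle pole gene, and Esco2 and Cdca5, which act on sister chromatid cohesion, followed in the cluster with parietal and proximal genes with 155-, 343- and 177-fold higher levels. In monocytic-like cells Pclaf, a PCNA-binding protein gene, was 202-fold and Stmn1, a tubulin-binding protein gene, 18.1-fold higher. Ezh2, the methyltransferase of the Polycomb complex, was 5.61-fold higher in monocytic-like and 6.16-fold higher in proximal-like cells.

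Toward the other cells, the genes with the largest folds in the cluster with parietal and proximal genes included Ugt2b38 (3 UMIs in cycling cells, 23.4-fold lower, 8.02 to 114), Slc16a14 (11.7-fold), Acmsd (11.1-fold), Ugt2b37 (10.4-fold), Dao (7.18-fold) and Pck1 (5.42-fold), and also Mfsd4b5, Rdh16 and Rhpn1. Dao and Pck1 encode enzymes of the proximal tubule, and Rhpn1 was also a leading gene of a podocyte-like cluster. Ugt2b37 and Ugt2b38 are near-identical copies, and reads may have been split between them. In proximal-like cells the organic anion transporter gene Slco1a1 (3 UMIs, 22.9-fold lower, 7.82 to 111), the amino acid transporter gene Slc7a13 (10.4-fold lower), and Acy3 (5.95-fold lower, 4.61 to 7.82) were among the 10, and Akr1c14 was at 0 in cycling cells, at least 8.10-fold lower against a floor of 3 UMIs. Inmt had 1 UMI and was 34.5-fold lower, with an interval of 6.19 to 1362. The proximal marker list, of which Slc7a13 is a member and which helped to name both classes, moved with these genes. In the cluster with parietal and proximal genes its median was 691 CPM in cycling and 1936 CPM in other cells of IRI24h-TDN, and 717 against 1693 CPM in IRI24h-TD. In proximal-like cells it was 15490 against 24260 CPM in Sham, 2813 against 5789 CPM in IRI24h-TDN and 2171 against 2621 CPM in IRI24h-TD. The part of the list in these folds was not tested.

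In monocytic-like cells the 10 genes lower in cycling cells included genes of podocytes. Podxl had 262 CPM against 864 CPM expected, Col4a3 65.8 against 295 CPM and Sparc 185 against 864 CPM. The podocyte list in the other monocytic-like cells ran from 0 to 37610 CPM around a median of 262 CPM, and in the cycling ones from 0 to 25040 CPM around 239 CPM. When cells with a second class list were left out, the log2 folds went from -1.72 to -0.26 for Podxl, from -2.17 to -0.59 for Col4a3 and from -2.23 to -0.45 for Sparc. Thbs1, which encodes thrombospondin 1, kept its fold, with 175 CPM against 1070 CPM expected and a log2 fold that went from -2.61 to -2.75. In Sham alone the podocyte genes had the opposite sign, with 0.88 for Podxl, 0.22 for Col4a3 and 0.05 for Sparc, whereas Thbs1 had -3.19. Sham held only 10 cycling monocytic-like cells, with a podocyte list median of 749 CPM and a highest value of 25040 CPM. By its own markers 1 of them was nearest to the podocyte list, and its part in the sign was not tested.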

How the data were processed

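Single cells of mouse kidney cortex were measured in 3 libraries with BD Rhapsody. The deposited tables hold whole-number counts of UMIs for every gene of every barcode, made by the authors without normalization, and the submitters' processing notes name CASAVA 1.8, UMI-tools, Seurat and mm10. The aligner and annotation are not given in the sources used here. Libraries held 69980443 to 93470709 UMIs over 9884 to 10062 barcodes. Barcodes under 200 genes or over 50% mitochondrial UMIs were left out (3248 of 30008, 2 of which met the rule).

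Counts were analysed with Python 3.11.15, scanpy 1.11.5, scikit-learn 1.9.0 and leidenalg 0.10.2. Cells were clustered on 2000 variable genes without 159 listed cell-cycle genes and without histone, mitochondrial, ribosomal and hemoglobin genes, using 30 components corrected between libraries (a rewritten Harmony, theta 2), 15 neighbours and resolution 1. A cluster took the name of a marker list when that list's CPM reached 0.25 of its highest cluster level and at least 3 markers were seen in 25% of its cells. It took both names when the next list reached 0.35 of the first score and 0.15 in itself. This naming rule was set after the data were seen. Phase was scored in scanpy with 43 control genes. Folds compared summed UMIs of cycling cells with those expected from other cells of the same class and library, over genes with at least 10 UMIs and either over 3 UMIs seen or at least 3 expected. The code was tested on simulated data.

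Genes named outside the lists were the 10 with the largest fold each way in the 3 classes with at least 20 cycling cells, among genes with at least 50 UMIs, 50 CPM and a UMI in 20% of cells in the higher group. Exceptions, chosen after their values were seen, were genes that describe a class (Ccr2, C1qa, Aqp2, Lcn2, Slc34a1, Cd3e, Nkg7 and Cd79a). The cells and lists were chosen with earlier results of these data known. No doublet caller was run, and cells with a second class list at 25% or more of its class level were left out as an alternative. Other alternatives were the gene and mitochondrial limits, the number of rule genes, thinning, the clustering and single libraries. The supplementary tables of the study were not used. Some genes that met the rule are not reported here.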

Additional observations from a re-analysis of the deposited data

How the results depend on the processing

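Each setting was changed in turn. Over the shares, class composition, phase shares and gene counts, 139 of 177 values stayed close to the reported ones and 38 moved. With at least 2 of the 7 genes the cycling share was 0.882% in Sham and 1.76% in IRI24h-TDN, 7.42% of monocytic-like and 1.39% of distal cells, and the G2/M share was 31.2% over all cells, 49.3% in Sham and 18.9% in IRI24h-TDN. With at least 4 genes the share was 0.898% in IRI24h-TDN and 3.13% of monocytic-like cells. With thinning it was 0.614% in IRI24h-TDN, 0.346% in IRI24h-TD, 2.47% of monocytic-like, 1.48% of proximal-like and 0.352% of distal cells, and the G2/M share was 61.3% over all and 52.7% in IRI24h-TDN. Thinning also gave 557 of 6191 genes lower in cycling monocytic-like cells and 520 of 4458 in proximal-like cells, with fewer genes compared. With at most 20% mitochondrial UMIs 16 of 1065 distal cells were cycling (1.502%), where the main setting kept 2370 distal cells. With cells of a second class list left out, proximal-like cells were cycling in 1.52% and made up 10.4% of the cycling cells, and 584 of 9458 genes were lower in monocytic-like cells. With classes by own markers, 0.676% of proximal-like and 6.89% of parietal-like cells were cycling, and proximal-like cells made up 4.57% and the cluster with parietal and proximal genes, which that setting does not define, 0% of the cycling cells. With cell-cycle genes kept in the clustering, 10.3% of the cluster with parietal and proximal genes, 0.837% of proximal-like and 0.362% of parietal-like cells were cycling, and the first 2 made up 39.6% and 5.58% of the cycling cells. With no correction between libraries, 0.706% of proximal-like and 0% of podocyte-like cells were cycling, and the shares of the cycling cells were 38.1% and 4.06%. With the mean over scaled cells 1635 of 10031 genes were higher and 1580 lower in proximal-like cells. In Sham alone 546 of 4738 genes were lower in monocytic-like cells, and log2 folds there changed sign for the progenitor list median (0.65), Wt1 (0.65), Cdkn1c (0.78), Col4a3 (0.22), Igfbp7 (0.81), Podxl (0.88), S100a6 (0.57) and Sparc (0.051). Cdkn1c also changed sign there without cells of a second class list (0.0083), and Plk2 did so in proximal-like cells of Sham alone (-0.075) and IRI24h-TDN alone (-1.64). The cause of these changes was not tested. Of 940 single gene values 10 changed sign, and of 266 list medians 1 did. No paired analysis was possible because each condition had 1 library and no test was run.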
